A study of Mus musculus with 24 samples.

Results

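The genes described here are 10 genes of the major histocompatibility complex (MHC) presentation pathways in mouse liver and heart. They were chosen by name: the symbols H2-K1, H2-D1, B2m, Tap1, Tap2, Psmb8, Psmb9, H2-Aa, H2-Ab1 and Cd74 were looked up in GENCODE vM21, and each matched 1 row of the 15323 genes in the deposited table. Of these, 7 serve class I and 3 serve class II. No measured value entered the choice of names, but the set was proposed with earlier results of these data known. The values come from 24 libraries of polyadenylated RNA from parental and conplastic mice. Conplastic lines are those whose nucleus comes from one strain and whose mitochondrial DNA (mtDNA) comes from another.

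A genotype gives the nucleus before the colon and the mtDNA after it. The parental combinations are BL/6J:C57, a C57BL/6 nucleus with its own C57 mtDNA, and NZB:NZB, an NZB nucleus with its own mtDNA. The conplastic lines, made by 10 generations of backcrossing, are BL/6J:NZB (C57BL/6 nucleus, NZB mtDNA) and NZB:C57 (NZB nucleus, C57 mtDNA). For each of these 4 genotypes, liver (median lobe) and heart (left ventricle) were taken from 12 males aged 10 weeks. RNA with an integrity score of at least 7.9 was combined in equal amounts from 4 animals per pool, so that each genotype has 3 pools per tissue. Replicates are thus pools of different animals. The p-values set differences between group means against the spread among pools, and the spread among single animals was not measured. The same animals may be behind the liver pools and the heart pools of one genotype. The library titles say "mix" for BL/6J and "rep" for NZB, so the nucleus and any handling that goes with these words cannot be told apart. Both strains were bought from the same supplier, and the labels name no congenic control for the H2 region.

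Class I molecules show fragments of a cell's own proteins at its surface. The heavy chains, here H2-K1 and H2-D1, pair with beta-2 microglobulin (B2m), the peptides are cut by proteasomes that can carry the interferon-induced subunits Psmb8 and Psmb9, and the transporter of Tap1 and Tap2 carries them into the endoplasmic reticulum. Class II molecules, here the alpha chain H2-Aa and the beta chain H2-Ab1, show fragments of proteins taken up from outside. They are assembled with the invariant chain Cd74 and are made mainly by macrophages, dendritic cells and B cells, which are a minority of the cells in liver and heart. All of these genes but B2m and Cd74 lie in the H2 region of chromosome 17, where the strains differ: C57BL/6 carries haplotype b and NZB haplotype d. H2-K1, H2-D1, H2-Aa and H2-Ab1 are highly polymorphic, so they are set here against the other 6 genes, whose sequence varies little. In bulk tissue, fewer cells of a type and less RNA per cell cannot be told apart.

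Promoter sequences of 7 of the 10 genes were read from RefSeq (build GRCm38.p6) for the 250 bases before each start. Tap2 and H2-Ab1 had no entry, and Cd74 was left out of the search. The sequences are shown because the class I and class II genes are known to share an upstream module that carries an X2 box and a Y box. The letters searched were chosen after these sequences had been seen, so their presence is a description. The letters TGACG, followed after 15 to 25 bases by ATTGG and searched on both strands, were in 4 of the 7 windows and in 0.381% of all 32851 promoters of the same length. The stretches below run 5′ to 3′ along the gene, with TGACG and ATTGG in capitals; the gap was 20 bases in the class I heavy chains and B2m and 21 in H2-Aa.
H2-K1 (chr17:34000359-34000388, minus strand): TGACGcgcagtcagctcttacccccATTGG
H2-D1 (chr17:35262993-35263022, plus strand): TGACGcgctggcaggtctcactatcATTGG
B2m (chr2:122147609-122147638, plus strand): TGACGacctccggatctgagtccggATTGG
H2-Aa (chr17:34287867-34287897, minus strand): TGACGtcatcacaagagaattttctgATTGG

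The whole windows of H2-K1, B2m and H2-Aa are given below, with the same letters in capitals. The pair ends 11 bases before the window's end in H2-K1, 48 in B2m and 43 in H2-Aa. In H2-D1, whose whole window is not printed, it lies farther from the start and ends 71 bases before the window's end. The H2-K1 window is that of its first entry. In a second H2-K1 entry (chr17:34000334-34000583) the pair begins at base 196 of the window instead of 210, farther from the start. In H2-Aa the letters TGACG also read on the other strand, overlapping the pair. TGACG alone was in 17.8% of all promoters and ATTGG alone in 33.8%. The reference letters are those of C57BL/6, not of NZB.
H2-K1 (chr17:34000348-34000597, minus strand): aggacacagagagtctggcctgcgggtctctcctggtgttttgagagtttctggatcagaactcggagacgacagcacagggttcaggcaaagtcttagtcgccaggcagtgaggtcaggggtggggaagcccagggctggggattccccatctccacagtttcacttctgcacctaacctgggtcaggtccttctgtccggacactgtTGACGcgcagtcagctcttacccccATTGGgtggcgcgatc
B2m (chr2:122147437-122147686, plus strand): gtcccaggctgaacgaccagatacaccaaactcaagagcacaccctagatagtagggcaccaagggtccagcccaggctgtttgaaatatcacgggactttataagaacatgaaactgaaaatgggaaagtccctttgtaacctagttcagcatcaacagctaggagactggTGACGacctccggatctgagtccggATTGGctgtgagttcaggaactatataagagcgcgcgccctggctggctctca
H2-Aa (chr17:34287824-34288073, minus strand): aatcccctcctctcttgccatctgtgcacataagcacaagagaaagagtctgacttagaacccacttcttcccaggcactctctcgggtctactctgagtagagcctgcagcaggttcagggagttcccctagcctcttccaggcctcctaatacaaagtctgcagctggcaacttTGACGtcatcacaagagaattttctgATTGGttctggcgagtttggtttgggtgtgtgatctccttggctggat
The windows of Tap1 and Psmb9 face each other on opposite strands and share 225 bases. The pair was not found in the windows of Tap1, Psmb8 and Psmb9, which says only that these letters are not there.

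Several facts touch all the values below. Recovered reads per library ran from 7294525 to 34974268 in liver and from 3714278 to 12949956 in heart. The NZB:C57 hearts stood apart: their 20 highest genes took 33.4 to 34.1% of the summed values against 11.5 to 14.5% in the other hearts, and 8 cardiomyocyte markers summed to 252600 to 261600 against 27450 to 43990. The corresponding shares in livers were 27.6 to 30.3% in NZB:C57 and 24.4 to 27.9% in the others. Tissue labels matched their markers, with hepatocyte markers summing to 112600 to 214400 in livers and 13.1 to 186 in hearts. Cardiomyocyte markers summed to at most 1.08 in BL/6J livers and to 43.7 to 151 in NZB:NZB livers. In NZB:C57 livers the sums, from lowest to highest, were 0.314, 110.8 and 148.5. The reads were matched to GRCm38, which is C57BL/6 sequence. For the polymorphic genes, and for any other H2 gene that differs in sequence between the strains, less RNA and fewer alignable reads in NZB libraries cannot be told apart. H2-K1 and H2-D1 also share sequence: 22.8% of the 31-base words of H2-K1 and 26.7% of those of H2-D1 occur in another gene, so their division between copies is uncertain, while the other 8 genes share at most 1.41%. Exons of Tap1 and Psmb9 overlap on opposite strands by 212 bases, and Tap2 and Psmb8 overlap antisense models by 698 and 498 bases. Without strand information such reads cannot be assigned.

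Values are normalised read counts, the authors' scale on which libraries can be compared. Changes are on the log2(value + 1) scale, which understates the change of low genes, with their standard error (SE) and the Benjamini-Hochberg adjusted p of limma over all genes tested. A gene was called when that p was under 0.05.

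**Figure D1:**
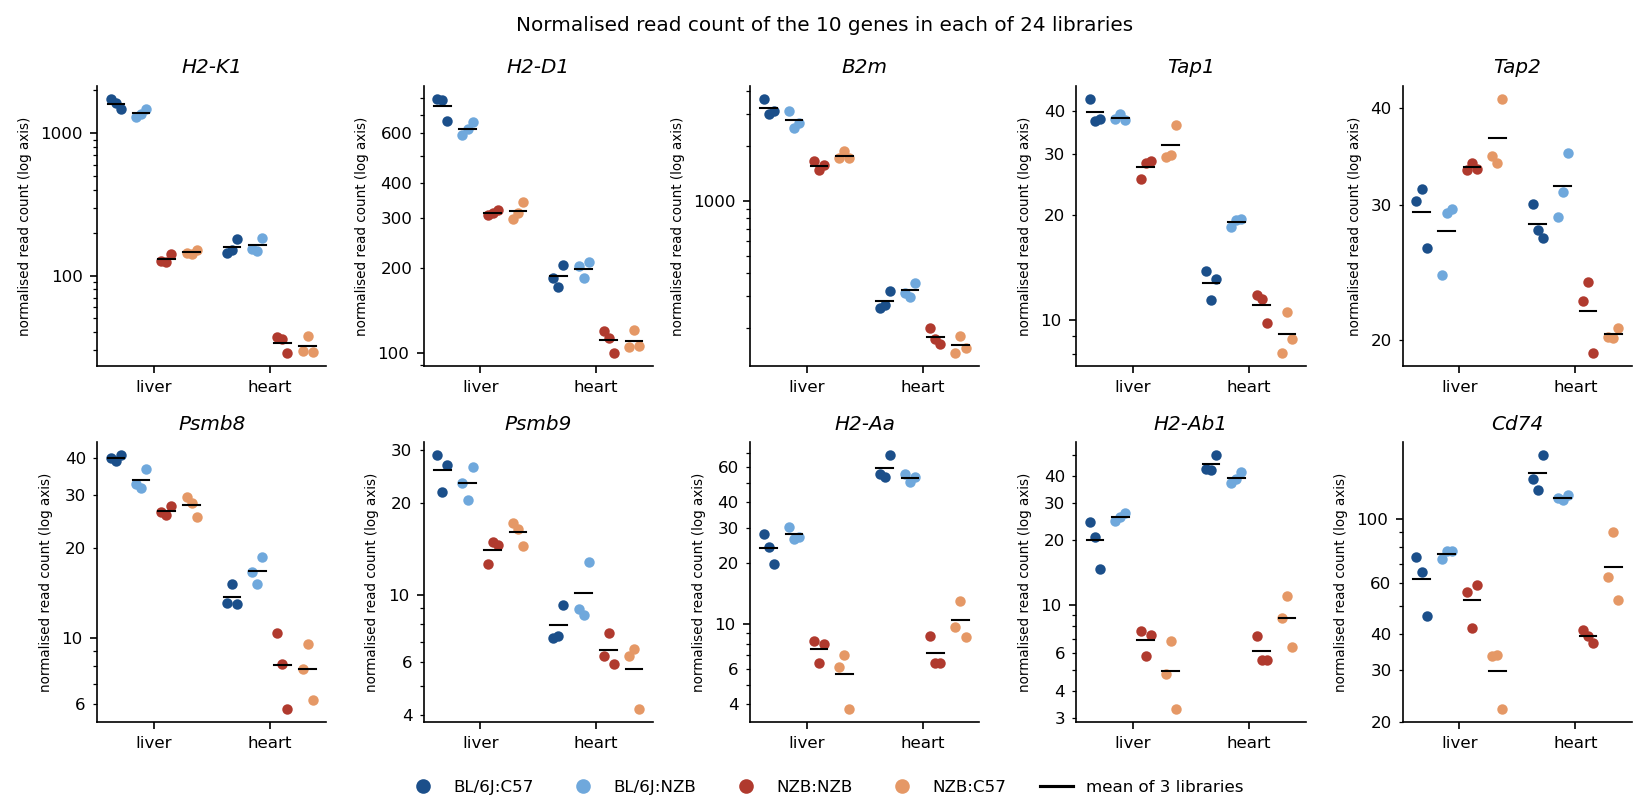
Normalised read count (log axis) of each of the 10 genes in all 24 libraries, by tissue on the horizontal axis and genotype by colour, with points for libraries and bars for means of 3. The 6 BL/6J livers lie above the 6 NZB livers for every gene but Tap2 and Cd74, and the class II genes are the only ones with higher means in BL/6J hearts than in BL/6J livers in both BL/6J lines.

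The first question was how the nuclear genome, NZB or BL/6J, altered these genes when the mtDNA was the same. Nearly all of the 10 genes were lower with the NZB nucleus. On NZB mtDNA, 8 of 10 genes were lower in liver, where 11.9% of all tested genes were called lower, and 10 of 10 were lower in heart, where the share was 13.6%. On C57 mtDNA, 9 of 10 were lower in liver (background 14.8%) and 9 of 10 in heart (background 13.1%). No gene of the 10 was called higher. The C57 comparisons rest on the NZB:C57 libraries that stood apart.

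The 4 polymorphic genes were called lower in all 4 comparisons. Their median log2 change on NZB mtDNA was -1.76 in liver and -2.37 in heart, against -0.50 and -0.79 for the other 6 genes and -0.01 and 0.02 for all genes tested. On C57 mtDNA the polymorphic medians were -1.88 and -2.27, against -0.58 and -0.60 for the others and -0.03 and 0.01 for all genes. The 2 sets overlapped, since in heart on NZB mtDNA the change was -0.84 for H2-D1, -0.84 for B2m and -1.56 for Cd74. Whether polymorphic and other genes differ in their changes was not tested.

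Scaled by library totals, the share of genes called lower was 8.52% and higher 19.0% in liver on NZB mtDNA (11.9% and 12.9% on the authors' scale), with 7 of the 10 genes lower and Tap2 higher. In heart on NZB mtDNA it was 10.3% lower and 22.5% higher (13.6% and 15.5%), with all 10 lower. In heart on C57 mtDNA the median of all genes moved from 0.01 to -0.52 and 63.1% of genes were called lower (13.1%), so that the count of 10 lower genes there stands in a shifted background.

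**Figure D2:**
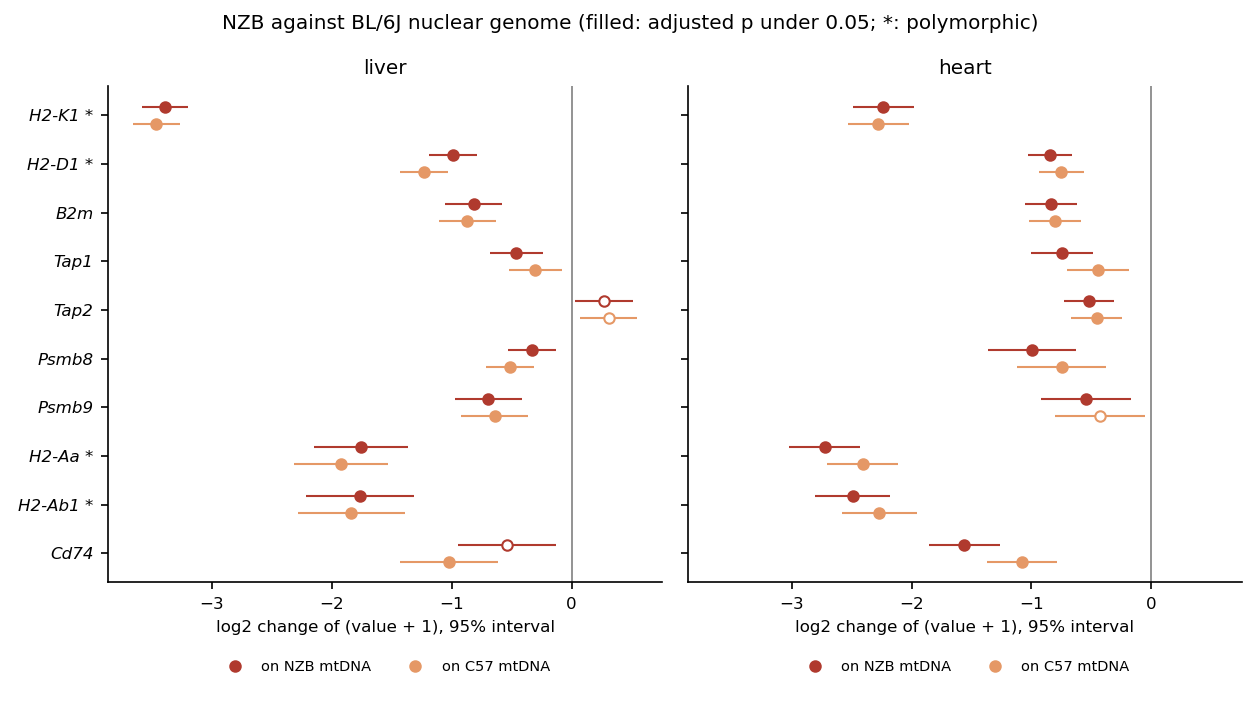
Log2 change of (value + 1) from BL/6J to NZB nucleus with 95% intervals, by gene, in liver (left) and heart (right), on NZB mtDNA and on C57 mtDNA; filled points passed an adjusted p of 0.05 and asterisks mark polymorphic genes. H2-K1 lies farthest left in liver, H2-Aa in heart, and Tap2 in liver is alone to the right of 0.

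H2-K1 (ENSMUSG00000061232, chromosome 17, 33996017 to 34000347, minus strand, GRCm38) encodes the class I heavy chain K and showed the largest difference of the 10 genes in liver. BL/6J:C57 livers held 1747, 1623 and 1474 normalised reads and BL/6J:NZB livers 1304, 1355 and 1476. NZB:NZB livers held 127, 124 and 141 and NZB:C57 livers 143, 141 and 151. All 6 NZB livers were far below all 6 BL/6J livers, with no overlap. The difference was 10.5-fold on NZB mtDNA (log2 change -3.39, SE 0.09, adjusted p = 3.73e-12) and 11-fold on C57 mtDNA (log2 change -3.46, SE 0.09, adjusted p = 2.96e-12).

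For H2-K1, BL/6J:C57 hearts held 144, 150.3 and 179 and BL/6J:NZB hearts 155, 149.6 and 184. It was 37, 35.8 and 28.6 in NZB:NZB and 29.3, 37.4 and 28.9 in NZB:C57 hearts. The nuclear genomes again did not overlap. The difference was 4.72-fold on NZB mtDNA (log2 change -2.24, SE 0.12, adjusted p = 2.62e-10) and 4.84-fold on C57 mtDNA (log2 change -2.28, SE 0.12, adjusted p = 7.62e-11).

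H2-D1 (ENSMUSG00000073411, chromosome 17, 35262730 to 35267499, plus strand) encodes the class I heavy chain D. BL/6J:C57 livers held 796, 787 and 662 and BL/6J:NZB livers 594, 622 and 656. NZB:NZB livers held 308, 313 and 320.1 and NZB:C57 livers 298, 312 and 341. The 6 NZB livers were lower than the 6 BL/6J livers without overlap, by 1.98-fold on NZB mtDNA (log2 change -0.99, SE 0.09, adjusted p = 2.7e-06) and 2.35-fold on C57 mtDNA (log2 change -1.23, SE 0.09, adjusted p = 2.65e-07). BL/6J:C57 hearts held 183, 171 and 205 and BL/6J:NZB hearts 202, 185 and 209. NZB:NZB hearts held 119, 112 and 99.7 and NZB:C57 hearts 105, 121 and 106. The genomes did not overlap in heart either (NZB mtDNA: log2 change -0.84, SE 0.09, adjusted p = 1.37e-06; C57 mtDNA: log2 change -0.75, SE 0.09, adjusted p = 2.2e-06).

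The balance between the heavy chains differed with the nuclear genome. H2-K1 over H2-D1 was 2.06 to 2.23 in BL/6J:C57 livers and 2.18 to 2.25 in BL/6J:NZB livers. It was 0.397 to 0.439 in NZB:NZB and 0.442 to 0.481 in NZB:C57 livers. Per kilobase of exon as well, H2-K1 was above H2-D1 in BL/6J livers and below it in NZB livers. In heart H2-D1 was the higher one in every group, per kilobase and in counts, with ratios of 0.764 to 0.883 in BL/6J:NZB and 0.286 to 0.319 in NZB:NZB. The ratio of H2-D1 to B2m overlapped between the nuclear genomes on NZB mtDNA, at 0.192 to 0.249 in BL/6J:NZB and 0.188 to 0.213 in NZB:NZB livers. On C57 mtDNA it did not overlap in liver, at 0.214 to 0.262 in BL/6J:C57 and 0.168 to 0.198 in NZB:C57.

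H2-K1 and the genes in the table that share 31-base words with it, 19 in all, were also summed, since the division of reads among them is uncertain. In liver the sum was 4707 ± 253 (SD, n = 3) in BL/6J:NZB and 1805 ± 31.1 in NZB:NZB. Without H2-K1 and H2-D1 it was 2705 ± 147 and 1361 ± 19.9. The heart sums were 575 ± 52.6 and 242 ± 18.3, and 214 ± 23 and 97.7 ± 4.40 without these 2 genes. The sum was lower in each NZB:NZB library than in each BL/6J:NZB library, with or without H2-K1 and H2-D1. Reads of NZB alleles that could not be aligned to the reference are missing from these sums too, and the part of the reference sequence and of shared reads in these values was not tested.

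**Figure D3:**
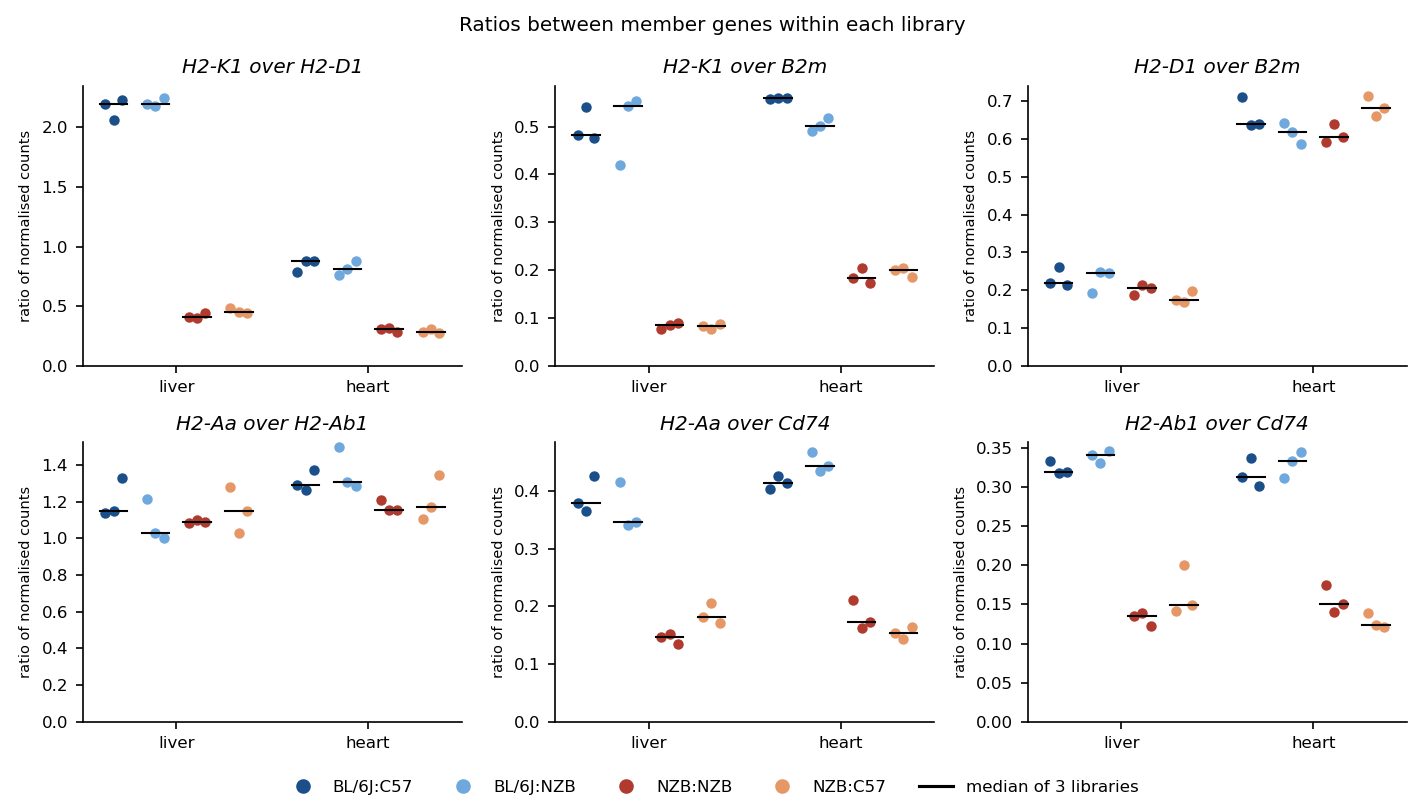
Ratio of the normalised counts of gene pairs within each library, by tissue and genotype, with bars for medians of 3 libraries. Ratios of H2-K1 to H2-D1 and of H2-Aa or H2-Ab1 to Cd74 are lower in NZB than in BL/6J libraries of the same tissue, whereas H2-D1 to B2m overlaps between the nuclear genomes on NZB mtDNA.

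B2m (ENSMUSG00000060802, chromosome 2, 122147686 to 122153083, plus strand) is the invariant light chain of class I, lies outside the H2 region, and was the highest of the 10 genes per kilobase of exon in every group, at 3768 ± 391 per kilobase (SD, n = 3) in BL/6J:C57 livers. Its normalised counts were 3625, 3000.3 and 3097 in BL/6J:C57 livers and 3101, 2499.5 and 2665 in BL/6J:NZB livers. They were 1643, 1471 and 1563 in NZB:NZB and 1717, 1863 and 1725 in NZB:C57 livers. Every NZB liver was below every BL/6J liver (log2 change -0.82, SE 0.11, adjusted p = 0.000108 on NZB mtDNA; log2 change -0.87, SE 0.11, adjusted p = 5.75e-05 on C57 mtDNA). BL/6J:C57 hearts held 257, 268 and 320.2 and BL/6J:NZB hearts 314, 298 and 355. The values were 202, 175 and 164 in NZB:NZB and 147, 182 and 155 in NZB:C57. The same separation held in heart (log2 change -0.84, SE 0.10, adjusted p = 1e-05 on NZB mtDNA; log2 change -0.80, SE 0.10, adjusted p = 6.8e-06 on C57 mtDNA). This gene shares none of its 31-base words with another gene.

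Tap1 and Tap2, the 2 chains of one peptide transporter, went different ways in liver. Tap1 (ENSMUSG00000037321, chromosome 17, 34187553 to 34197225, plus strand) was 37.8, 39.1 and 37.6 in BL/6J:NZB livers and 25.5, 28.2 and 28.8 in NZB:NZB livers. On C57 mtDNA it was 43.3, 37.4 and 37.8 in BL/6J:C57 and 29.5, 29.9 and 36.4 in NZB:C57 livers. All NZB livers were below the BL/6J livers, the highest NZB:C57 pool by a narrow margin (log2 change -0.46, SE 0.10, adjusted p = 0.00514 on NZB mtDNA; log2 change -0.30, SE 0.10, adjusted p = 0.0439 on C57 mtDNA). The call on C57 mtDNA was lost when any of 4 of the 6 libraries was left out: without NZB:C57 replicate 1 the adjusted p was 0.15, without NZB:C57 replicate 2 it was 0.137, without BL/6J:C57 replicate 1 it was 0.144 and without BL/6J:C57 replicate 2 it was 0.0631.

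Tap2 (ENSMUSG00000024339, chromosome 17, 34203527 to 34216321, plus strand) was 24.3, 29.3 and 29.7 in BL/6J:NZB and 33.3, 34 and 33.4 in NZB:NZB livers. On C57 mtDNA it was 30.3, 31.4 and 26.4 in BL/6J:C57 and 34.7, 34 and 41.2 in NZB:C57 livers. The NZB livers were the higher ones here, without overlap, but neither difference passed the test (log2 change 0.27, SE 0.11, adjusted p = 0.0936 on NZB mtDNA; log2 change 0.31, SE 0.11, adjusted p = 0.053 on C57 mtDNA). Scaled by library totals the first of these passed, with a log2 change of 0.38 and an adjusted p of 0.0253. Tap1 over Tap2 was 1.27 to 1.55 in BL/6J:NZB and 0.766 to 0.861 in NZB:NZB livers.

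In heart, both transporter genes were lower with the NZB nucleus. Tap1 was 18.5, 19.4 and 19.5 in BL/6J:NZB against 11.8, 11.5 and 9.80 in NZB:NZB (log2 change -0.74, SE 0.12, adjusted p = 0.000201). On C57 mtDNA it was 13.9, 11.4 and 13.1 in BL/6J:C57 against 8.07, 10.6 and 8.83 in NZB:C57 (log2 change -0.45, SE 0.12, adjusted p = 0.00811). The groups did not overlap in either comparison, but on C57 mtDNA the gap was narrow. Tap2 was 28.9, 31.1 and 35 in BL/6J:NZB against 22.5, 23.8 and 19.3 in NZB:NZB (log2 change -0.52, SE 0.10, adjusted p = 0.000808). It was 30.1, 27.8 and 27.2 in BL/6J:C57 against 20.2, 20.1 and 20.8 in NZB:C57 (log2 change -0.46, SE 0.10, adjusted p = 0.00143). Every NZB heart was below every BL/6J heart for Tap2, the opposite order to liver.

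Psmb8 (ENSMUSG00000024338, chromosome 17, 34197721 to 34201454, plus strand) and Psmb9 (ENSMUSG00000096727, chromosome 17, 34181987 to 34187764, minus strand) encode catalytic subunits of the immunoproteasome, the form induced by interferon. Psmb8 was 32.7, 31.7 and 36.9 in BL/6J:NZB and 26.4, 25.8 and 27.6 in NZB:NZB livers (log2 change -0.33, SE 0.09, adjusted p = 0.0203). It was 40.0, 39 and 41 in BL/6J:C57 and 29.6, 28.3 and 25.4 in NZB:C57 livers (log2 change -0.51, SE 0.09, adjusted p = 0.00114). The NZB livers were lower without overlap, but the call on NZB mtDNA was lost without NZB:NZB replicate 1 (adjusted p = 0.0631), without NZB:NZB replicate 2 (0.0736), without BL/6J:NZB replicate 3 (0.0912) and with library totals (adjusted p = 0.127). Psmb8 in heart was 16.5, 15.1 and 18.7 in BL/6J:NZB and 10.3, 8.18 and 5.75 in NZB:NZB (log2 change -1.0, SE 0.17, adjusted p = 0.000358). It was 13, 15.1 and 12.9 in BL/6J:C57 and 7.81, 9.49 and 6.18 in NZB:C57 (log2 change -0.75, SE 0.17, adjusted p = 0.00251). All NZB hearts were lower.

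Psmb9 was 23.3, 20.5 and 26.3 in BL/6J:NZB and 12.6, 14.8 and 14.6 in NZB:NZB livers (log2 change -0.69, SE 0.13, adjusted p = 0.00155). On C57 mtDNA it was 28.8, 21.8 and 26.6 in BL/6J:C57 and 17.2, 16.5 and 14.5 in NZB:C57 livers (log2 change -0.64, SE 0.13, adjusted p = 0.00256). Both liver comparisons were free of overlap. Hearts held 8.94, 8.58 and 12.8 in BL/6J:NZB and 6.27, 7.48 and 5.92 in NZB:NZB (log2 change -0.54, SE 0.18, adjusted p = 0.0297). On C57 mtDNA they held 7.20, 7.31 and 9.24 in BL/6J:C57 and 6.28, 6.60 and 4.19 in NZB:C57, which did not overlap, but the difference did not pass the test (log2 change -0.43, SE 0.18, adjusted p = 0.0741). The heart call on NZB mtDNA was lost without NZB:NZB replicate 1 (adjusted p = 0.0693), NZB:NZB replicate 3 (0.1) or BL/6J:NZB replicate 3 (0.16), the last of which held the highest heart value.

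Among the class II genes, H2-Aa (ENSMUSG00000036594, chromosome 17, 34282744 to 34287823, minus strand) and H2-Ab1 (ENSMUSG00000073421, chromosome 17, 34257689 to 34269419, plus strand), the 2 chains of the molecule I-A, were lower with the NZB nucleus in every comparison. H2-Aa was 27.8, 23.9 and 19.7 in BL/6J:C57 livers and 30.0, 26.4 and 26.8 in BL/6J:NZB livers. It was 8.23, 6.39 and 7.96 in NZB:NZB and 6.11, 6.99 and 3.79 in NZB:C57 livers. No NZB liver reached the lowest BL/6J liver (log2 change -1.76, SE 0.18, adjusted p = 8.53e-06 on NZB mtDNA; log2 change -1.92, SE 0.18, adjusted p = 3.01e-06 on C57 mtDNA). BL/6J:C57 hearts held 55.4, 53.6 and 68.5 and BL/6J:NZB hearts 55.1, 50.2 and 53.1. It was 8.74, 6.44 and 6.42 in NZB:NZB and 9.68, 13 and 8.61 in NZB:C57 hearts. The separation in heart was the widest of the 10 genes there, 6.61-fold on NZB mtDNA (log2 change -2.73, SE 0.14, adjusted p = 1.56e-10) and 5.31-fold on C57 mtDNA (log2 change -2.41, SE 0.14, adjusted p = 3.22e-10).

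H2-Ab1 ran close beside it. BL/6J:C57 livers held 24.5, 20.9 and 14.8 and BL/6J:NZB livers 24.7, 25.6 and 26.8. The values were 7.59, 5.80 and 7.30 in NZB:NZB and 4.78, 6.79 and 3.29 in NZB:C57. The NZB livers were lower without overlap (log2 change -1.77, SE 0.21, adjusted p = 2.97e-05 on NZB mtDNA; log2 change -1.84, SE 0.21, adjusted p = 1.9e-05 on C57 mtDNA). BL/6J:C57 hearts held 42.9, 42.4 and 49.9 and BL/6J:NZB hearts 36.8, 38.4 and 41.4. The values were 7.23, 5.57 and 5.58 in NZB:NZB and 8.74, 11.1 and 6.40 in NZB:C57. The NZB hearts were again lower without overlap (log2 change -2.49, SE 0.15, adjusted p = 1.09e-09 on NZB mtDNA; log2 change -2.27, SE 0.15, adjusted p = 1.45e-09 on C57 mtDNA). The ratio of H2-Aa to H2-Ab1 lay between 1.0 and 1.5 in all 24 libraries. It was 1.0 to 1.22 in BL/6J:NZB and 1.08 to 1.10 in NZB:NZB livers, which overlapped, and 1.28 to 1.5 and 1.15 to 1.21 in the hearts of these lines, which did not.

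Cd74, the invariant chain (ENSMUSG00000024610, chromosome 18), lies outside the H2 region. It was 72.4, 77.4 and 77.6 in BL/6J:NZB and 55.9, 41.9 and 59.3 in NZB:NZB livers, a difference that missed the threshold (log2 change -0.54, SE 0.19, adjusted p = 0.0525) and passed it in a fit without the NZB:C57 libraries (adjusted p = 0.0354). On C57 mtDNA it was 73.5, 65.5 and 46.3 in BL/6J:C57 and 33.7, 34 and 22.1 in NZB:C57 livers (log2 change -1.02, SE 0.19, adjusted p = 0.00125). The groups did not overlap in either liver comparison. Hearts held 118, 115 and 120.1 in BL/6J:NZB and 41.4, 39.5 and 37.2 in NZB:NZB (log2 change -1.56, SE 0.14, adjusted p = 2.16e-07). On C57 mtDNA they held 137, 126 and 166 in BL/6J:C57 and 62.7, 89.8 and 52.5 in NZB:C57 (log2 change -1.08, SE 0.14, adjusted p = 7.21e-06). Every NZB heart was below every BL/6J heart.

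Against Cd74, the class II chains were low in NZB libraries. H2-Aa over Cd74 was 0.341 to 0.415 in BL/6J:NZB and 0.134 to 0.153 in NZB:NZB livers, and 0.435 to 0.467 and 0.163 to 0.211 in the hearts of these lines. The ratios of the 2 nuclear genomes did not overlap, so the values of the chains and of Cd74 changed unequally. For the polymorphic chains, less RNA and fewer alignable reads in NZB libraries cannot be told apart here either. Markers of the cells that make class II were called in both directions. Of all genes tested on NZB mtDNA, 12.9% were called higher and 11.9% lower in liver, and 15.5% and 13.6% in heart. Summed over 14 macrophage and Kupffer cell markers, BL/6J:NZB livers gave 498 to 706 and NZB:NZB livers 452 to 599.5, with 1 marker called higher and 2 lower of 14. In heart the sums were 288 to 365 and 419.6 to 485, with 9 of 11 tested markers higher and none lower. B and plasma cell markers summed to 13.9 to 15.8 in BL/6J:NZB and 42 to 44.8 in NZB:NZB livers (3 higher, 1 lower of 5). They were 15.4 to 18.6 and 20.4 to 65.1 in heart (2 higher of 7). Dendritic cell markers were 11.5 to 13.9 and 9.73 to 11.6 in liver and 27.9 to 32.8 and 26.2 to 26.8 in heart, with 1 of 2 tested markers lower in liver and 0 of 4 called in heart. Cd209a was at 0 in all NZB:NZB hearts, and no other marker of these 4 lists was at 0 throughout one of these groups. Pan-leukocyte markers were 46.4 to 62.1 and 32.7 to 48.2 in liver (2 of 5 lower) and 45.9 to 59 and 41.9 to 50.2 in heart (1 of 5 lower). On C57 mtDNA, 13.1% of all genes tested were called higher and 14.8% lower in liver, and 22.1% and 13.1% in heart. Macrophage markers there were 1 higher and 6 lower of 14 in liver and 11 of 11 higher in heart. Pan-leukocyte markers were 4 of 5 lower in liver and 0 of 5 called in heart. The part of these cells in the class II values was not tested.

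The wider pathways moved in both directions. Of the other class I pathway genes, a list of 31 names of which 26 were in the table, 5 were higher and 8 lower of 26 tested in liver on NZB mtDNA, and 5 higher and 9 lower of 25 in heart. Of all genes tested in these comparisons, 12.9% were called higher and 11.9% lower in liver and 15.5% and 13.6% in heart. These shares, on the authors' scale, stand beside the counts on that scale of every list below on NZB mtDNA. With library totals the shares were 19.0% higher and 8.52% lower in liver and 22.5% and 10.3% in heart. The medians of the class I list, -0.11 and -0.15, stood beside -0.01 and 0.02 for all genes tested in liver and heart. Scaled by library totals the liver split of this list was 9 higher and 7 lower. The extremes were nonclassical class I heavy chains, which share sequence with one another and whose values are uncertain for that reason. Their reads too were matched to C57BL/6 sequence, so RNA level and alignability in NZB libraries cannot be told apart. H2-T22 had a log2 change of -2.78 (adjusted p = 8.73e-10) in liver and -3.09 (2.01e-10) in heart, and H2-Q7 of -3.33 (1.55e-09) and -2.61 (2.87e-08). H2-T23, a ligand of natural killer receptors, had log2 changes of -2.57 in liver (adjusted p = 9.8e-10) and -2.35 in heart (adjusted p = 4.75e-10). Others were higher with the NZB nucleus. H2-Q2 had the largest log2 change of the list in liver, 3.48 (adjusted p = 4.15e-08), and one of 1.87 (adjusted p = 1.22e-06) in heart, where BL/6J:NZB libraries held 0 to 2 reads of it. H2-T10 had log2 changes of 3.34 (adjusted p = 1.26e-09) in liver and 1.07 (adjusted p = 0.000681) in heart, and it shares 47.6% of its 31-base words with H2-T22.

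Regulators and partners of the class I genes gave a mixed picture. Nlrc5, the transactivator of class I genes, was 33.4, 30.6 and 34.8 in BL/6J:NZB and 15.1, 15 and 18.5 in NZB:NZB livers (log2 change -0.98, SE 0.13, adjusted p = 6.18e-05). In heart it was 8.79, 8.73 and 10.9 in BL/6J:NZB and 3.65, 3.48 and 2.20 in NZB:NZB (log2 change -1.36, SE 0.18, adjusted p = 2.2e-05). It was lower with the NZB nucleus on C57 mtDNA as well, with log2 changes of -1.04 in liver (adjusted p = 3.53e-05) and -1.29 in heart (adjusted p = 1.75e-05). Tapbp, which bridges class I to the transporter, did not pass in any of the 4 comparisons on the authors' scale (0.23 in liver and -0.19 in heart on NZB mtDNA, adjusted p = 0.0673 and 0.129); with library totals it was called higher in liver on NZB mtDNA (0.35, adjusted p = 0.0125) and lower in heart on C57 mtDNA (-0.65, adjusted p = 3e-06). H2-Q10, a secreted class I chain made in liver, fell in liver (log2 change -0.99, SE 0.10, adjusted p = 5.32e-06) and did not pass in heart (-0.29, adjusted p = 0.26); 30.3% of its words are shared.

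The immunoproteasome subunits have constitutive counterparts: Psmb5 is replaced by Psmb8, Psmb6 by Psmb9 and Psmb7 by Psmb10. Psmb5 was lower with the NZB nucleus in liver (log2 change -0.63, SE 0.12, adjusted p = 0.00174) and heart (log2 change -0.27, SE 0.09, adjusted p = 0.0288; with library totals adjusted p = 0.0923) on NZB mtDNA, and 71.7% of its 31-base words are shared with other annotated genes. Psmb6 and Psmb7 had log2 changes of -0.21 and -0.23 in liver (adjusted p = 0.17 and 0.0557) and of -0.29 and -0.34 in heart (adjusted p = 0.0123 and 0.00769). Psmb10, the third inducible subunit, had log2 changes of -0.25 in liver and -0.07 in heart, neither passing (adjusted p = 0.0981 and 0.67). Of the 14 constitutive proteasome genes, 2 were lower in liver and 9 in heart on NZB mtDNA, beside 11.9% and 13.6% of all genes. None was higher, and the medians were -0.21 and -0.27. With library totals the counts of lower genes were 1 and 5, beside 8.52% and 10.3% of all genes.

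In the class II list, 1 of 16 tested genes was higher and 4 lower in liver on NZB mtDNA, and 4 of 17 higher and 3 lower in heart. The higher gene in liver was H2-Ea-ps, the alpha chain of the molecule I-E, which C57BL/6 mice are known not to make because the promoter of the gene is deleted in haplotype b. It was listed at 0 reads in all 12 BL/6J libraries. NZB:NZB livers held 12.2, 9.93 and 12.1 and NZB:C57 livers 8.15, 7.18 and 3.13. NZB:NZB hearts held 7.47, 9.22 and 8.62 and NZB:C57 hearts 15.2, 18.9 and 12.8. Every NZB library thus held reads of a gene that was not detected in any BL/6J library, which matches the strain labels. Against a floor of 3 reads per BL/6J library, the lowest NZB library was at least 35.5-fold higher in liver and 15.7-fold in heart on NZB mtDNA, and 11.8-fold and 23.1-fold on C57 mtDNA. These bounds cover counting error only.

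Its partner H2-Eb1, the beta chain of I-E, had lower values with the NZB nucleus. For this H2 gene too, less RNA and fewer alignable reads cannot be told apart. It was 20.8, 17.4 and 23.8 in BL/6J:NZB and 10.2, 8.85 and 11.3 in NZB:NZB livers (log2 change -0.96, SE 0.21, adjusted p = 0.00398). In heart it was 42.6, 42.4 and 47.4 in BL/6J:NZB and 7.47, 8.70 and 7.77 in NZB:NZB (log2 change -2.33, SE 0.18, adjusted p = 2.63e-08). The groups did not overlap in either tissue. Ciita, the master regulator of class II, did not pass in any nuclear comparison, with log2 changes from -0.40 to 0.09. Rfxank, a subunit of the factor that binds the X box, was lower on NZB mtDNA in liver (log2 change -1.42, SE 0.21, adjusted p = 0.000256) and in heart (log2 change -0.38, SE 0.12, adjusted p = 0.0203; with library totals adjusted p = 0.0518). It was lower on C57 mtDNA as well, by log2 changes of -1.74 in liver (adjusted p = 3.7e-05) and -0.52 in heart (adjusted p = 0.00187). The lysosomal genes Ifi30 and Lgmn, which process antigen for class II, were higher in heart (log2 change 1.08, SE 0.16, adjusted p = 6.7e-05 and log2 change 0.55, SE 0.08, adjusted p = 7.36e-05) and did not pass in liver (0.10 and 0.00, adjusted p = 0.714 and 0.992).

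Of 37 tested interferon-response genes on NZB mtDNA, with 12.9% of all genes called higher and 11.9% lower in liver and 15.5% and 13.6% in heart, 2 were higher and 6 lower in liver, with a median of -0.07. In heart 2 were higher and 19 lower, with a median of -0.33. With library totals these counts were 6 and 3 in liver, where 19.0% of all genes were called higher and 8.52% lower. In heart they were 2 and 12, where 22.5% of all genes were called higher and 10.3% lower. Irf7, a transcription factor of the interferon response, was lower in both tissues (log2 change -0.94, SE 0.16, adjusted p = 0.000673 in liver; log2 change -0.84, SE 0.14, adjusted p = 0.000232 in heart). Igtp, an interferon-induced GTPase, was higher in NZB:NZB livers (log2 change 0.75, SE 0.14, adjusted p = 0.0014) and lower in NZB:NZB hearts (log2 change -1.12, SE 0.15, adjusted p = 1.83e-05), and it shares sequence with Irgm2.

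On C57 mtDNA 13.1% of all genes were called higher and 14.8% lower in liver, and 22.1% and 13.1% in heart. The class I list had 6 higher and 12 lower of 26 in liver and 6 higher and 8 lower of 25 in heart, and the class II list 1 and 6 of 16 in liver and 4 and 3 of 17 in heart. The proteasome list had 9 of 14 lower in liver and 3 in heart, and the interferon list 3 higher and 8 lower of 37 in liver and 4 and 10 in heart. With library totals 20 class I genes, 7 class II genes, 14 proteasome genes and 30 interferon genes were called lower in those hearts. There 63.1% of all genes were called lower on that scale and the median of all genes had shifted.

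The second question was whether exchange of the mtDNA on a fixed nucleus altered these genes. On the BL/6J nucleus in liver, limma called 0 of the 10 genes, where 0.0076% of all genes tested were called, and 3 of the 10 had an unadjusted p under 0.05; edgeR and DESeq2 called 0 as well. BL/6J:NZB and BL/6J:C57 livers differed by -0.23 (95% interval -0.42 to -0.03) for H2-K1 and -0.26 (95% interval -0.46 to -0.06) for H2-D1. For Cd74 the difference was 0.32 (95% interval -0.09 to 0.72). The intervals over the 10 genes ran from -0.47 for B2m to 0.82 for H2-Ab1. These comparisons share the BL/6J libraries with the nuclear comparisons above.

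In BL/6J hearts 1 gene, Tap1, was called higher with NZB mtDNA, where 0.427% of all genes were. The values were 13.9, 11.4 and 13.1 in BL/6J:C57 hearts and 18.5, 19.4 and 19.5 in BL/6J:NZB hearts. All BL/6J:NZB hearts were above all BL/6J:C57 hearts (log2 change 0.55, SE 0.12, adjusted p = 0.0465). The call did not survive the removal of any 1 of the 6 libraries: the adjusted p was 0.0549, 0.159 and 0.188 without BL/6J:NZB replicates 1, 2 and 3, and 0.137, 0.0866 and 0.145 without BL/6J:C57 replicates 1, 2 and 3. Without the NZB:C57 libraries in the fit it was 0.0603. Psmb9, the neighbour that shares the Tap1 promoter region, had a log2 change of 0.31 (95% interval -0.07 to 0.68) and Psmb8, the next gene along, one of 0.27 (95% interval -0.09 to 0.64). The interferon-response genes Gbp3 (log2 change 0.63, SE 0.12, adjusted p = 0.0285) and Ifit1 (log2 change 0.71, SE 0.15, adjusted p = 0.0421) were the 2 called members of their list of 37 tested, both higher.

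On the NZB nucleus, exchange of NZB for C57 mtDNA involved the NZB:C57 libraries that stood apart, and Cd74 was called in opposite directions in the tissues on the authors' scale. The difference between the tissues was not tested on this nucleus. In liver Cd74 was called lower, 1 of 10 genes where the background share was 4.44%. It was 55.9, 41.9 and 59.3 in NZB:NZB and 33.7, 34 and 22.1 in NZB:C57 livers, without overlap (log2 change -0.80, SE 0.19, adjusted p = 0.0174). The call was lost without NZB:C57 replicate 3, the lowest pool (adjusted p = 0.0701), without NZB:NZB replicate 1 (0.0798) and without NZB:NZB replicate 3 (0.0854). H2-Aa and H2-Ab1 had log2 changes of -0.39 (95% interval -0.78 to 0.00) and -0.44 (95% interval -0.89 to 0.01) there. Macrophage and Kupffer cell markers were 452 to 599.5 in NZB:NZB and 395 to 534 in NZB:C57 livers (1 higher and 4 lower of 14), endothelial markers 314 to 354 and 152 to 171 (6 of 9 lower) and pan-leukocyte markers 32.7 to 48.2 and 24.1 to 27.4 (1 of 5 lower). B and plasma cell markers were 42 to 44.8 and 51.2 to 68.9 (2 of 5 higher, Igkc and Jchain), T and NK cell markers 2.65 to 3.29 and 5.82 to 8.86 (1 of 2 higher) and dendritic cell markers 9.73 to 11.6 and 7.24 to 9.56 (0 of 2 called, Cd209a at 0 in NZB:C57). Of all genes tested, 3.65% were called higher and 4.44% lower in this comparison. The part of these cells in the Cd74 value was not tested.

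In heart, Cd74 and H2-Aa were called higher in NZB:C57, 2 of 10 genes where 13% of all genes were. Cd74 was 41.4, 39.5 and 37.2 in NZB:NZB and 62.7, 89.8 and 52.5 in NZB:C57 hearts, without overlap (log2 change 0.75, SE 0.14, adjusted p = 0.00074). H2-Aa was 8.74, 6.44 and 6.42 in NZB:NZB and 9.68, 13 and 8.61 in NZB:C57, and the lowest NZB:C57 heart was below the highest NZB:NZB heart (log2 change 0.47, SE 0.14, adjusted p = 0.0288). The H2-Aa call was lost without NZB:C57 replicate 2, the highest pool (adjusted p = 0.173), without NZB:NZB replicate 2 (0.105) and without NZB:NZB replicate 3 (0.116). The direction of this comparison depended on the scale, since library totals moved the median of all genes to -0.64 and the share of genes called lower from 2.89% to 71.8%. On that scale 0 of the 10 genes were higher and 7 lower, and the log2 change was -0.16 for H2-Aa and 0.06 for Cd74 (adjusted p = 0.71). Ciita was higher in NZB:C57 hearts on the authors' scale (log2 change 0.77, SE 0.20, adjusted p = 0.0106) and not called on library totals (adjusted p = 0.102). Macrophage markers summed to 419.6 to 485 in NZB:NZB and 531 to 593 in NZB:C57 hearts, with 3 of 11 higher, and endothelial markers to 941 to 1055 and 1487 to 1691, with 7 of 8 higher. B and plasma cell markers were 20.4 to 65.1 and 20.04 to 39.8 (0 of 7 called), dendritic cell markers 26.2 to 26.8 and 26.5 to 30.7 (0 of 4) and pan-leukocyte markers 41.9 to 50.2 and 45.7 to 63.1 (0 of 5). Their part was not tested.

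**Figure D4:**
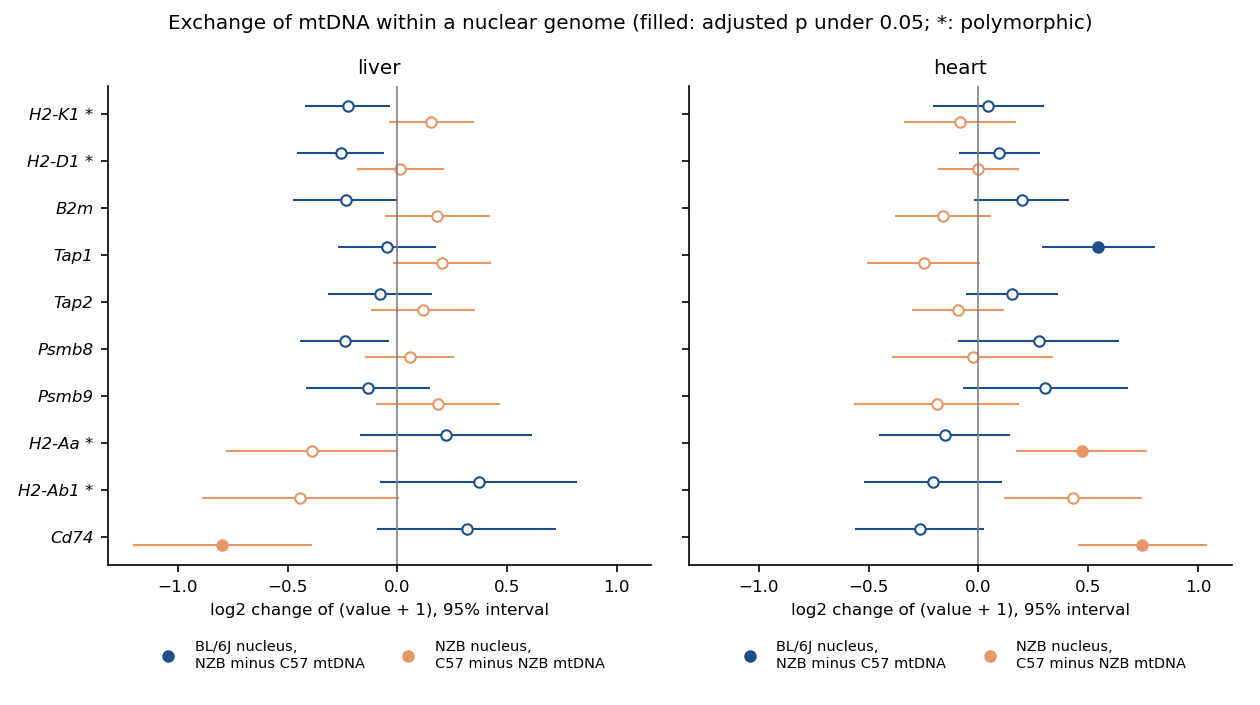
Log2 change of (value + 1) on exchange of mtDNA with 95% intervals, by gene, in liver (left) and heart (right); the BL/6J nucleus shows BL/6J:NZB minus BL/6J:C57 and the NZB nucleus NZB:C57 minus NZB:NZB, and filled points passed an adjusted p of 0.05. Filled points are Cd74 in liver and Tap1, H2-Aa and Cd74 in heart.

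Whether the nuclear difference itself depended on the mtDNA was tested as an interaction, the nuclear difference on NZB mtDNA minus that on C57 mtDNA. None of the 10 genes was called by limma in liver, where 2.49% of all genes were called, and 0 had an unadjusted p under 0.05. None was called in heart, where the share was 11.2%, and 1, Cd74, had an unadjusted p under 0.05; edgeR and DESeq2 also called 0 in each tissue. The Cd74 interaction was 0.48 (95% interval -0.09 to 1.06) in liver and -0.48 (95% interval -0.90 to -0.06) in heart, with opposite signs. That of H2-K1 was 0.07 (95% interval -0.20 to 0.35) in liver and 0.04 (95% interval -0.32 to 0.40) in heart, small against its nuclear differences. With library totals 4 of the 10 genes (H2-K1, H2-D1, B2m and Tap2) were called higher in heart, where 59.0% of all genes were. Without NZB:C57 heart replicate 3, Cd74 passed in heart (log2 -0.65, adjusted p = 0.0206).

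The third question was how the genes differed between heart and liver. The class I genes were lower in heart, all but Tap2 in the BL/6J lines, and the class II genes were higher except in NZB:NZB. In BL/6J:C57, 6 genes were lower and 3 higher, where 39.8% of all genes were lower and 37.3% higher. In BL/6J:NZB the counts were again 6 and 3 (38.4% and 37.5%). NZB:NZB had 7 lower and none higher (37.4% and 37.8%), and NZB:C57 7 lower and 3 higher (39.9% and 39.6%). Most genes differ between these organs, so these counts say little about the 10 genes in particular. With library totals the background shifted as well. On that scale the genes lower and higher were 7 and 3 in NZB:C57 (28.5% and 49.6% of all genes) and 5 and 4 in NZB:NZB (18.5% and 64.3%). They were 3 and 4 in BL/6J:NZB (18.9% and 64.2%) and 6 and 4 in BL/6J:C57 (19.0% and 63.4%). The tissues were fitted as independent although pools may share animals.

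B2m fell most from liver to heart in BL/6J:C57, by 3.52 on the log2 scale (11.5-fold, SE 0.11, adjusted p = 1.82e-18). H2-K1 fell by 3.35 there and by 1.92 in NZB:NZB (adjusted p = 7.92e-18 and 3.54e-13). Tap2 did not pass in BL/6J:C57 (log2 change -0.05, SE 0.10, adjusted p = 0.692) and was lower in NZB:NZB hearts (log2 change -0.60, SE 0.10, adjusted p = 1.37e-05). These values rest on the authors' scale: with library totals the median of all genes moved to 0.74 in BL/6J:C57 and 0.73 in NZB:NZB, and Tap2 became higher in heart in both (log2 0.90 and 0.24).

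H2-Aa was higher in BL/6J:C57 hearts than livers (log2 change 1.28, SE 0.17, adjusted p = 5.59e-07) and Cd74 as well (log2 change 1.21, SE 0.18, adjusted p = 2.79e-06). In NZB:NZB neither H2-Aa (log2 change -0.06, SE 0.17, adjusted p = 0.76) nor Cd74 (log2 change -0.39, SE 0.18, adjusted p = 0.0603) passed; without the NZB:C57 libraries in the fit Cd74 was called lower (adjusted p = 0.0209). With library totals the NZB:NZB changes were 0.72 for H2-Aa, 0.62 for H2-Ab1 and 0.47 for Cd74, so their direction there depends on the scale. In NZB:C57 all 3 class II genes were higher in heart on both scales, by 0.80, 0.72 and 1.16 on the authors' scale (adjusted p = 0.000232, 0.00173 and 5.08e-06).

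**Figure D5:**
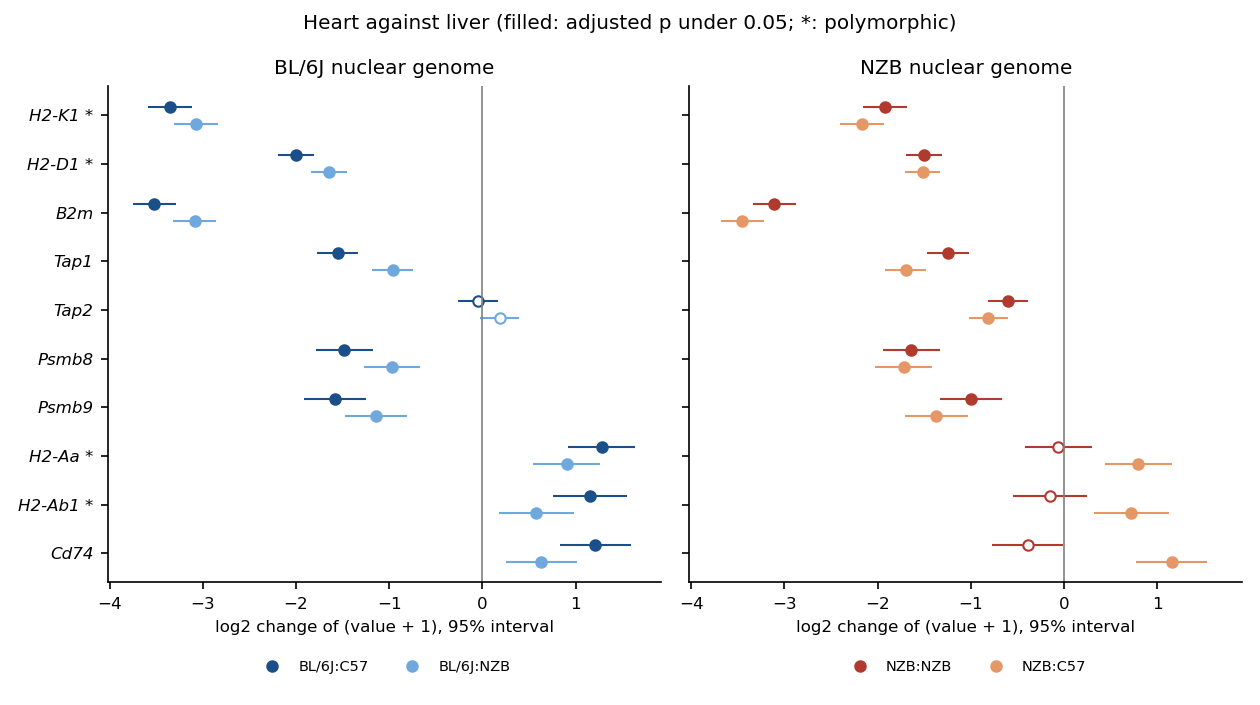
Log2 change of (value + 1) from liver to heart with 95% intervals, by gene, for the BL/6J lines (left) and the NZB lines (right); filled points passed an adjusted p of 0.05. The class II genes lie to the right of 0 in BL/6J:C57, BL/6J:NZB and NZB:C57 and at or left of 0 in NZB:NZB, and B2m and H2-K1 lie farthest left in the BL/6J lines.

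The nuclear difference was compared between the tissues on NZB mtDNA, as heart minus liver. Of the 10 genes, 1 was called higher, where 7.32% of all genes were, and 4 lower, where 8.2% were. H2-K1 was the higher one: its fall with the NZB nucleus was smaller in heart (difference in log2 change 1.15, SE 0.16, adjusted p = 1.87e-05). Tap2, Psmb8, H2-Aa and Cd74 had more negative changes in heart than in liver. The difference was -0.79 for Tap2 (SE 0.14, adjusted p = 0.000464) and -0.67 for Psmb8 (SE 0.21, adjusted p = 0.0315). For the class II genes it was -0.97 for H2-Aa (SE 0.25, adjusted p = 0.00877) and -1.02 for Cd74 (SE 0.26, adjusted p = 0.00894). The Psmb8 call was lost in 7 of 12 fits that left out 1 library. B2m and H2-D1 differed between the tissues by -0.02 (95% interval -0.34 to 0.31) and 0.15 (95% interval -0.12 to 0.41). H2-Ab1 missed the threshold (adjusted p = 0.0783) and passed without the NZB:C57 libraries in the fit (0.0227).

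A difference between the tissues in the effect of mtDNA on the BL/6J nucleus passed for none of the 10 genes by limma, where 0.0735% of all genes were called; 6 of the 10 had an unadjusted p under 0.05, edgeR called 0 and DESeq2 1. For Tap1 the difference, heart minus liver, was 0.59 (95% interval 0.28 to 0.91) with an adjusted p of 0.0964.

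Ranked over the 8 groups by mean, the genes fell into different orders. H2-K1 was highest in the BL/6J livers (1614 ± 137 and 1378 ± 88.3, SD, n = 3, overlapping) and lowest in the NZB hearts (33.8 ± 4.58 and 31.9 ± 4.79, overlapping). Its level in BL/6J hearts, 163 ± 18.8 and 158 ± 19, was next to that in NZB:C57 livers, 145 ± 5.0, which overlapped BL/6J:C57 hearts. H2-D1 and B2m were ordered by tissue first, so that all livers were above all hearts. H2-Aa was highest in BL/6J hearts (59.2 ± 8.17 and 52.8 ± 2.49) and lowest in NZB:C57 livers (5.63 ± 1.65). Tap2 had the flattest profile, from 20.4 ± 0.337 in NZB:C57 hearts to 36.6 ± 3.95 in NZB:C57 livers, and neighbours in its order overlapped except at the step from BL/6J:NZB livers to NZB:NZB hearts.

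Per kilobase of exon, on which genes can be set side by side, the polymorphic genes changed places among the 10. In BL/6J:NZB livers H2-K1 stood at 469 ± 30.0 and H2-D1 at 242 ± 12.1 normalised reads per kilobase (SD, n = 3), next after B2m. In NZB:NZB livers H2-D1, at 122 ± 2.30, was above H2-K1, at 44.4 ± 3.01. H2-Aa was the lowest of the 10 in NZB:C57 livers, at 1.48 ± 0.436, while Psmb9 was the lowest in every group of hearts, for example 1.79 ± 0.224 in NZB:NZB.

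Across the 24 libraries, with tissue means subtracted, the genes most like each of the 10 were found by Pearson's r of log2(value + 1) over 13653 genes. These points share nuclei, tissues and perhaps animals, and the values are a description. H2-K1 was most like H2-Q7 (0.99), Nudt19 (0.99) and H2-T23 (0.99), and H2-D1 most like H2-Q7 (0.99), Olfr1033 (0.97) and Rps18 (0.97). B2m was most like Mettl23 (0.97), H2-Q7 (0.96) and Rpl21 (0.96). Tap1 was most like Bst2 (0.90), Abhd14b (0.88) and Isoc2b (0.87), and Tap2 like Rars2 (0.88), Ears2 (0.86) and Parp3 (0.85). Psmb8 was most like Mrpl48 (0.93), Lgals4 (0.92) and Ap4s1 (0.91), and Psmb9 like Pecr (0.92), Miip (0.91) and Cyp2d22 (0.90). H2-Aa was most like Mndal (0.98), Pttg1 (0.98) and Pdk1 (0.97), and H2-Ab1 like Mndal (0.98), H2-Eb1 (0.97) and Pdk1 (0.97). Cd74 was most like H2-Eb1 (0.93), Pygb (0.90) and Bckdha (0.90). Without the NZB:C57 libraries, over 18 libraries, H2-Q7 stayed first for H2-K1 and H2-D1 (0.99 and 0.98), Bst2 for Tap1 (0.94) and H2-Eb1 for Cd74 (0.96), while Mgst1 came first for B2m (0.98) and Idh2 for Tap2 (0.92).

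With the means of all 8 groups subtracted, what remains is the variation among pools of 1 group. H2-Aa and H2-Ab1 still varied together over the 24 libraries (r = 0.91), as did H2-Ab1 and Cd74 (0.91) and H2-Aa and Cd74 (0.89). H2-K1 and H2-D1 did so as well (0.86), and they share reads. Liver and heart pools may come from the same animals, so these points are not all independent.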

How the data were processed

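PolyA RNA of 24 pools was sequenced on an Illumina Genome Analyzer IIx. Per the submitters' processing notes, the authors used cutadapt 1.2.1, Bowtie2 2.0.6, RSEM 1.2.3 and edgeR with GRCm38; whether counting used strand is not stated there. The deposited values are a signal, gene counts multiplied by 1 constant per library by the authors, and 100% of values came out as whole reads (within 0.01). Recovered reads per library were 3714278 to 34974268. Symbols came from GENCODE vM21 (15106 of 15323 genes), sequences from RefSeq.

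Tests used limma 3.58.1 (trend, two-sided) in R 4.3.3 on log2(value + 1), for genes with at least 1 in at least 3 libraries: 13159 in liver, 13803 in heart and 14968 across tissues, with all libraries of the tissue or tissues in the fit and Benjamini-Hochberg adjustment over all genes. Python 3.11.15 did the rest. edgeR 4.0.16 and DESeq2 1.42.0 on recovered reads, other pseudocounts, filters, scalings and left-out libraries were alternatives. The members and lists were chosen with earlier results of these data known. Besides the 10 genes, the text names fixed regulators and partners and up to 4 called genes of each list by smallest p, here not all printed, and the genes most like each member. The scripts were tested on simulated data.

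Replicate numbers are shared by the groups. Same-numbered pools deviated together most in NZB:NZB against BL/6J:NZB livers (r = 0.28, 0.19 and 0.23), which comes from the data and not from the labels. All r were also positive for NZB:C57 against NZB:NZB livers (0.05, 0.13 and 0.12) and for BL/6J:NZB hearts against livers (0.06, 0.01 and 0.25). The paired fit with a replicate block called 8 genes for NZB:NZB against BL/6J:NZB livers, as without it.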

Additional observations from a re-analysis of the deposited data

Results flagged for a closer look

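The effect of the nucleus on NZB mtDNA differed between heart and liver for 5 of the 10 genes, by a test of the difference itself (limma, heart minus liver, 3 pools per group). Of all genes tested, 7.32% were called higher and 8.2% lower in this comparison; of the 10, 1 was higher and 4 lower. H2-K1 differed by 1.15 (SE 0.16, adjusted p = 1.87e-05): the drop with the NZB nucleus was smaller in heart. Tap2 differed by -0.79 (SE 0.14, adjusted p = 0.000464), with NZB pools above BL/6J pools in liver and below them in heart. H2-Aa differed by -0.97 (SE 0.25, adjusted p = 0.00877) and Cd74 by -1.02 (SE 0.26, adjusted p = 0.00894), both with larger drops in heart. Psmb8 differed by -0.67 (SE 0.21, adjusted p = 0.0315), and 7 of the 12 fits that left out 1 library no longer called it.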

How the results depend on the processing

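Counts of the 10 genes called changed by more than 1.5 times in few settings. With library totals, 3 were called lower for NZB:C57 against NZB:NZB livers (19.9% of all genes) and 7 lower for the hearts (71.8%). On that scale 4 were called higher for the interaction in heart (59.0% of all genes). NZB:C57 against NZB:NZB hearts gave 1 with a pseudocount of 5 and 1 when only the compared libraries were fitted. BL/6J:NZB against BL/6J:C57 hearts gave 0 with no filter, 0 with DESeq2, 0 with the replicate block and 0 without the NZB:C57 libraries, an alternative chosen after seeing the data. The mtDNA difference on BL/6J, heart minus liver, gave 1 with DESeq2. The cause was not tested.

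With the replicate block the liver call of Tap1 on C57 mtDNA was lost (adjusted p = 0.0619, 8 genes called), as was Tap1 in BL/6J hearts (0.0863); no other call changed.

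Leaving out 1 library gave ranges of 7 to 8 for NZB:NZB against BL/6J:NZB livers and 9 to 10 for hearts, 8 to 9 for NZB:C57 against BL/6J:C57 livers and 9 to 9 for hearts, and 4 to 5 for the nuclear difference, heart minus liver. For mtDNA exchange on BL/6J it gave 0 to 0 in liver and 0 to 0 in heart, on NZB 0 to 1 in liver and 1 to 3 in heart, for the interaction 0 to 0 in liver and 0 to 1 in heart, and for the mtDNA difference, heart minus liver, 0 to 2. H2-Ab1 in NZB:C57 against NZB:NZB hearts was gained without NZB:C57 replicate 3 (0.61, adjusted p = 0.00352) and without NZB:NZB replicate 1 (0.0284). Heart against liver gave 9 to 9, 9 to 9, 7 to 8 and 10 to 10, the 7 to 8 in NZB:NZB, where Cd74 was gained without NZB:NZB liver replicate 2 (0.0184).

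Only library totals reversed a direction where either value passed; in 65 of 2710 refits, 18 of them with library totals, a value that passed neither before nor after changed sign. H2-Aa became -0.16 in NZB:C57 against NZB:NZB hearts. The heart interaction became 0.58 for H2-D1, 0.64 for B2m and 0.59 for Tap2. Heart against liver became 0.90 for Tap2 in BL/6J:C57, and in NZB:NZB 0.24 for Tap2, 0.72 for H2-Aa, 0.62 for H2-Ab1 and 0.47 for Cd74. Among the values of single genes, 6 came to pass and 29 ceased to pass with 1 library left out, and 29 and 17 under the other settings. Low counts limit H2-Aa and H2-Ab1 in NZB libraries, and Tap1, Psmb8 and Psmb9 in NZB hearts. The lowest NZB:C57 liver held 20 reads of H2-Ab1. In NZB:C57 hearts the lowest library held 19 reads of Psmb9, 28 of Psmb8 and 40 of Tap1.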
